A study of Mus musculus with 10 samples.

Results

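The VEGF family ligands and the genes that process VEGF-C were followed in skin endothelium: the 5 ligands *Vegfa*, *Vegfb*, *Vegfc*, *Vegfd* (listed as *Figf* in 4 of the plate tables), and *Pgf*, and the 2 genes that make VEGF-C active, *Ccbe1* and *Adamts3*. In the GENCODE annotation of GRCm38, *Vegfa* lies on chromosome 17 (46016993 to 46032369), *Vegfb* on 19 (6982473 to 6987651), *Vegfc* on 8 (54077606 to 54187096), *Vegfd* on X (164373378 to 164402650), *Pgf* on 12 (85166635 to 85177790), *Ccbe1* on 18 (66045302 to 66302741), and *Adamts3* on 5 (89677087 to 89883334). They were chosen by name, and all 7 were found among the 42525 genes shared by the 8 plate tables and among the 32285 genes of the 2 droplet libraries. The plates held single CD31+ PDPN+ cells of mouse ear skin, sequenced by Smart-seq in 4 groups of 2 plates each: *Tie1* fl/fl, *Tie1* iDLEC, *Tie1* *Tie2* fl/fl, and *Tie1* *Tie2* iDLEC. In the iDLEC groups Prox1-CreERT2, a Cre that acts in *Prox1*-expressing cells and so mainly in lymphatic endothelial cells (LECs), deleted *Tie1* or both *Tie1* and *Tie2* (gene *Tek*) after 4-hydroxytamoxifen (62.5 μg from P1 to P5). The fl/fl controls were Cre-negative pups that received 4-hydroxytamoxifen too. Both first replicates of the *Tie1* strain were female and the other plates male, so sex did not differ within a pair of plates with the same number. The 10x droplet libraries, 1 per treatment, held CD31-sorted ear skin cells of male wild-type C57Bl/6j mice given 20 mg/kg of a control IgG or of an Ang2-blocking antibody (Ang2 Ab) between P16 and P21. The Ang2 Ab library carries the word control in its title but Ang2 antibody as its treatment, and was used as the treated library. The number of mice behind a plate or library was not given, so that the p-values below measure only the spread between plates.

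VEGF-A acts mainly through VEGFR2 (*Kdr*) on blood vessels, VEGF-B and PlGF (*Pgf*) bind VEGFR1 (*Flt1*), and VEGF-C and VEGF-D drive lymphatic growth through VEGFR3 (*Flt4*). VEGF-C is secreted as a precursor of low activity; the protease ADAMTS3 cleaves it while CCBE1 holds the complex together, and other proteases, including plasmin and cathepsin D, can also cleave VEGF-C or VEGF-D. LECs are known as the responding cells of this system, whereas VEGF-C is made largely by other cells, among them cells of arteries and mesenchyme.

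The region upstream of the RefSeq start was read for the 2 ligands whose levels differed most clearly between cell types below, *Vegfc* (arterial ECs) and *Vegfa* (valve LECs). Both are shown 5′ to 3′ on the gene's strand, from build GRCm38.p6, and lie outside annotated exons. *Vegfc* has chr8:54077282-54077531 on the plus strand and *Vegfa* chr17:46032378-46032627 on the minus strand. Capitals mark the GC box, GGGCGG or its reverse CCGCCC.
Vegfc: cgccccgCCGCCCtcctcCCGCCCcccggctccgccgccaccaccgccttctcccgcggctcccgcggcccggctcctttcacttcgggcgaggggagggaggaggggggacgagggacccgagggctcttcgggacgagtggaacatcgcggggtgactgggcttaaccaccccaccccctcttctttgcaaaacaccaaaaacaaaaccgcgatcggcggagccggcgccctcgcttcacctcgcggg
Vegfa: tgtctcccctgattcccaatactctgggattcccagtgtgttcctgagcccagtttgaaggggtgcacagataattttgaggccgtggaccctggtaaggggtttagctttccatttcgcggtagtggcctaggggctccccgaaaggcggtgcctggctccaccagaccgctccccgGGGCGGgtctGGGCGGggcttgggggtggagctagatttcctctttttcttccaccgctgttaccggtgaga
The GC box was present upstream of *Vegfa*, *Vegfb*, *Vegfc*, *Pgf*, and *Adamts3*, and in 32.7% of 32851 promoters of this length. A TATA box (TATAAA or TTTATA, 12.4% of promoters) was found only for *Vegfd*, 73 bases before its RefSeq start, and the hypoxia response core ACGTG or CACGT (16.6%) only upstream of *Adamts3*. The windows of *Vegfd* (chrX:164373272-164373521) and *Pgf* (chr12:85177314-85177563) each overlapped 1 annotated exon. Their RefSeq starts lie inside the GENCODE spans given above, and so do the TATA letters of *Vegfd*. The AP-1 letters TGANTCA (6.75%) were in none of the 6 promoters. *Ccbe1* had no entry. These matches describe letters in a window and not binding sites.

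Plate depth ranged from 71309205 to 110741537 counts, and 2752 of 3048 wells were kept as LECs after wells with few genes and the fibroblast-like and keratinocyte-like wells had been removed. Of these, 1269 wells were unnamed, as their clusters matched no marker list, and counted as LECs by default. They included a cluster of 285 wells led by *Gm10800* and *Gm10801*, at 0.411 of the median depth of their plate. The 8 LEC markers were all detected in every plate. *Tie1* was at 2354 to 2737 CPM (counts scaled by library size) in control and 479 to 708 CPM in deleted plates. *Tek* was at 228 to 324 CPM in the controls and 221 and 237 CPM in *Tie1* iDLEC, against 30.8 and 55.4 CPM in *Tie1* *Tie2* iDLEC. Of the droplet barcodes, 3438 IgG and 2963 Ang2 Ab cells were kept, at a median depth of 9908 and 7942 UMIs. Of all barcodes, 5 were found in both libraries. Cell types were named from clusters by their marker genes and are called "like" for that reason, and 857 cells of low depth remained unnamed. LEC-like cells without further name are the undivided, capillary, and valve LEC-like cells together, and blood EC-like cells the arterial, capillary, venous, and other blood EC-like cells, while proliferating cells were not divided. All intervals of the droplet data are 95% and cover counting error only.

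The ligands differed in the skin cells that held them, and LEC-like cells of the droplet libraries held mainly *Vegfb*, *Vegfa*, and *Pgf*. *Vegfc*, the main lymphangiogenic ligand, was highest in arterial EC-like cells, at 309 UMI CPM (281 to 338) in the IgG and 329 UMI CPM (301 to 359) in the Ang2 Ab library. A *Vegfc* UMI was found in 69.5% of the 177 IgG and 77.8% of the 189 Ang2 Ab arterial EC-like cells. In LEC-like cells *Vegfc* reached 1.02 and 1.08 UMI CPM, with a UMI in 1.23% and 1.07% of the cells, although these cells were deeper (median 11833 and 11175 UMIs) than the arterial EC-like cells (7557 and 7993). After thinning each cell to 3000 UMIs the shares were 47.1% and 58.1% in arterial EC-like and 0.488% and 0.707% in LEC-like cells. Fibroblast-like cells (38.1 and 38.3 UMI CPM), venous EC-like cells (37.7 and 42 UMI CPM), and capillary EC-like cells (22 and 23.6 UMI CPM) came next. The intervals of the fibroblast-like and venous EC-like cells overlapped, so that their order was not resolved.

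*Vegfa*, the main angiogenic ligand, showed a different order. Valve LEC-like cells, from the flaps of lymphatic valves, held 98.9 UMI CPM (88 to 111) in the IgG and 86.7 UMI CPM (74.6 to 100.2) in the Ang2 Ab library. Fibroblast-like cells followed with 83.6 (66.2 to 104) and 59 (41.5 to 81.3), intervals that overlapped those of the valve LEC-like cells. Capillary LEC-like cells held 14.8 and 8.87 UMI CPM and the undivided LEC-like cells 25.5 and 18.2 UMI CPM, and neither interval reached that of the valve LEC-like cells. Among blood vessels *Vegfa* was highest in arterial EC-like cells (38.7 and 34.8 UMI CPM) and 8.01 or lower in the capillary, venous, and other blood EC-like cells. *Vegfb*, the ligand linked to endothelial lipid handling, was spread over all LEC-like classes (49.7 to 71.9 UMI CPM in both libraries). LEC-like cells as a whole had 57.1 and 53 UMI CPM of *Vegfb*, against 12.4 and 8.94 UMI CPM in blood EC-like cells.

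*Pgf*, whose product binds VEGFR1 but not VEGFR2, was found in mural-like cells (43.7 and 36.5 UMI CPM), in capillary EC-like cells (31.9 and 83.1), and in the undivided LEC-like cells (22 and 31.4). In the mural-like cells 10 cells held 91.4% and 71.4% of the *Pgf* UMIs. These cells also held the endothelial genes *Flt1* (323 and 204 UMI CPM) and *Kdr* (192 and 131). Whether their *Pgf* came from endothelial RNA was not tested. *Pgf* was nearly absent from venous EC-like cells, with 1 and 6 UMIs in 258 and 201 cells (a UMI in 0.388% and 2.99% of them). *Vegfd*, the second VEGFR3 ligand, was highest in fibroblast-like cells, at 18 UMI CPM (10.5 to 28.8) and 60.6 UMI CPM (42.9 to 83.2), from 7 and 5 cells. In each library only 1 of these cells had 5 or more UMIs, of 17 and 38 UMIs in all. In LEC-like cells *Vegfd* was at 2.95 and 1.3 UMI CPM. *Ccbe1* was found in fibroblast-like cells at 19.1 UMI CPM (11.3 to 30.1) and 95.7 UMI CPM (73 to 123), in 9 of 47 and 11 of 39 cells. In the Ang2 Ab library only 1 of these cells had 5 or more of the 60 UMIs. The intervals do not cover such a spread between cells. LEC-like cells gave 2 and 0 *Ccbe1* UMIs, and blood EC-like cells 0 and 1. A count of 0 in the 747 LEC-like cells of the Ang2 Ab library allows up to 0.325 UMI CPM. *Adamts3* was highest in cartilage-like cells (12.2 and 8.86 UMI CPM, in 19 of 98 and 11 of 82 cells), with 5 and 3 UMIs in all LEC-like cells. For 5 of the 7 genes the same cell type held the highest level in both libraries; *Vegfb* and *Pgf* were the exceptions.

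**Figure D1:**
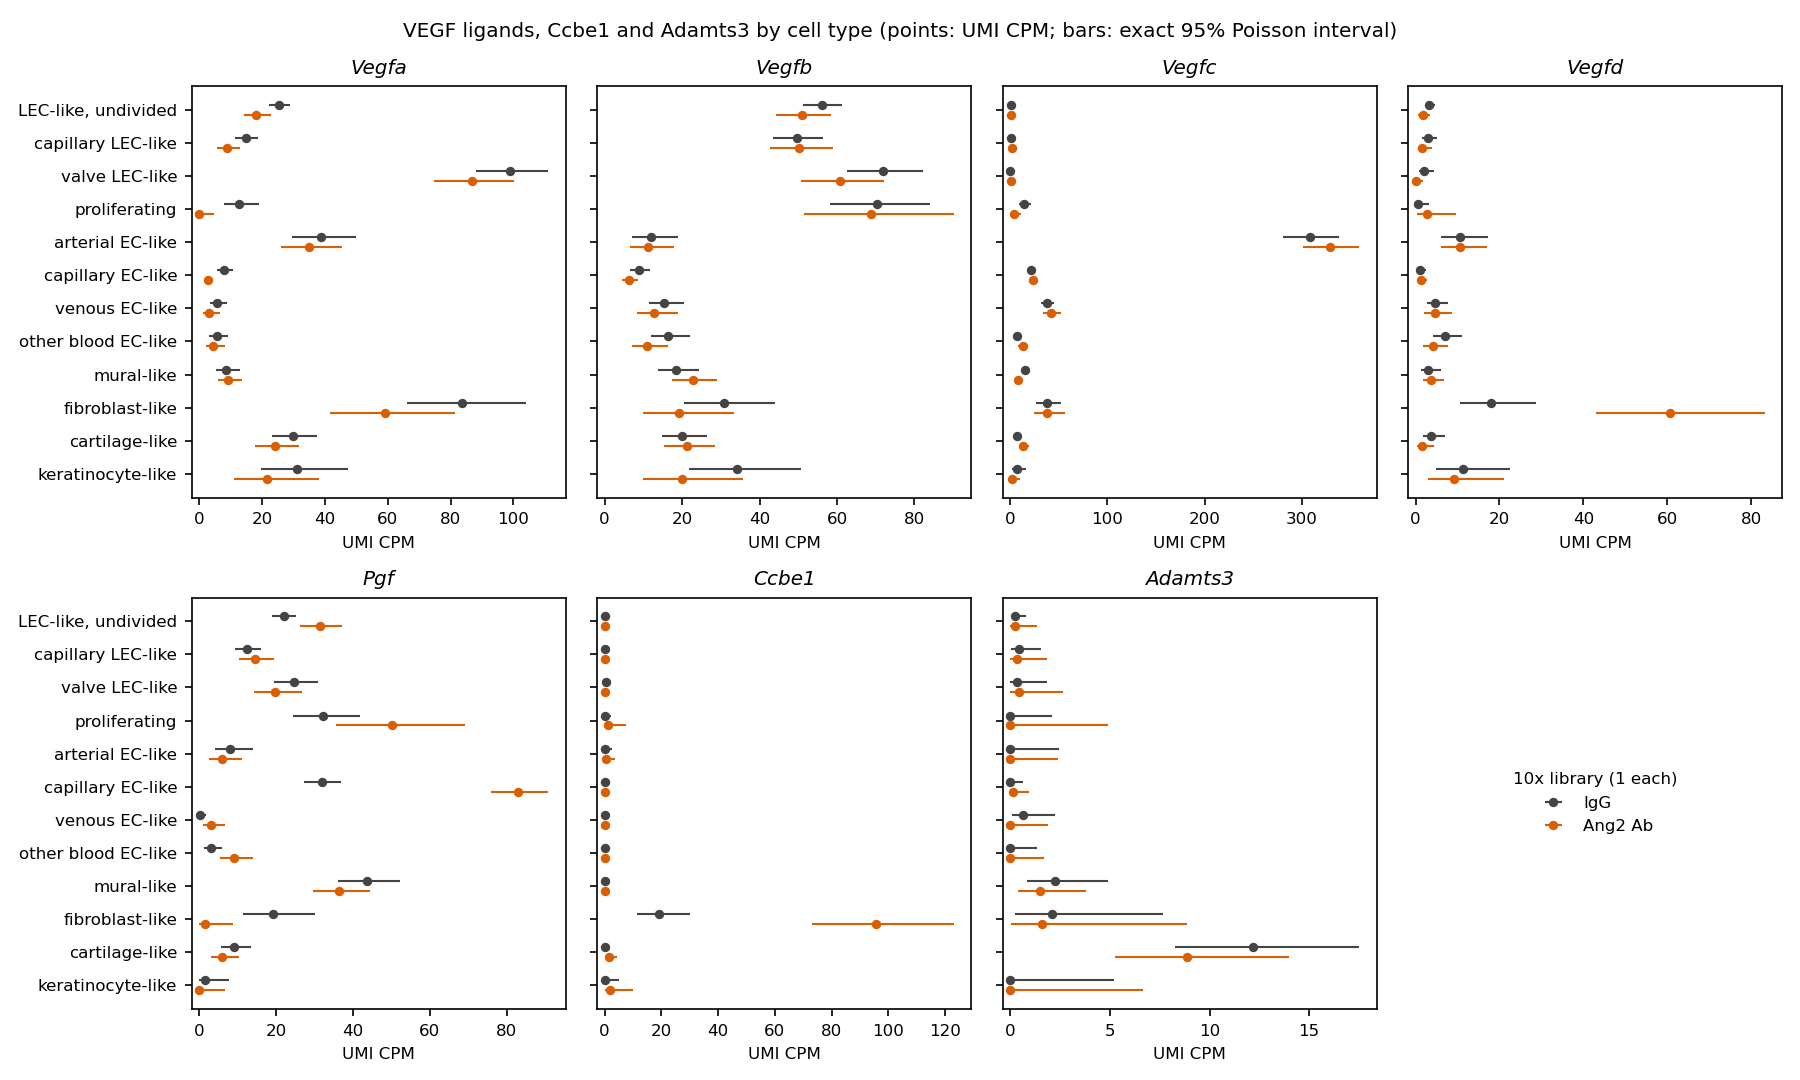
UMI CPM of each gene (x axis, linear) in 12 cell types (y axis) of the IgG and the Ang2 Ab library, with exact 95% Poisson intervals as bars. *Vegfc* stands out in arterial EC-like cells (309 and 329 UMI CPM), *Vegfa* in valve LEC-like and fibroblast-like cells, and *Ccbe1* in fibroblast-like cells.

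The comparison of Ang2 Ab with IgG asked whether blocking Ang2 changed these levels. It rests on 1 library per treatment, so no test was possible, and ratios of at least 2 or at most 0.5 in genes with at least 100 UMIs were counted. Such ratios were seen in 0.836% of 10403 genes in blood EC-like cells and in 1.73% of 10540 genes in LEC-like cells. *Pgf* in blood EC-like cells was the only one of the 7 genes beyond that limit, at 15.2 UMI CPM in the IgG and 45.6 UMI CPM in the Ang2 Ab library, a ratio of 2.99 (2.54 to 3.54). In capillary EC-like cells *Pgf* had a ratio of 2.61 (2.19 to 3.12), and cells with a *Pgf* UMI made up 4.24% of 566 and 12.2% of 646 cells (2.63% and 7.92% after thinning). Both clusters of this class showed it. The cluster led by *Rgcc*, *Tcim*, and *Car4* went from 32.2 to 81.5 UMI CPM, and the cluster led by *Slc28a2*, *Prnd*, and *Apln* went from 31 to 86.6 UMI CPM. The UMIs came from few cells, as the 10 cells with the most UMIs held at least 60.8% of the *Pgf* UMIs in each of these clusters and libraries. With at least 1000 genes required per cell, or with the 5% of cells with the highest doublet scores removed, the capillary EC-like levels were 17 and 38.9 UMI CPM and 9.96 and 38.6 UMI CPM (IgG and Ang2 Ab) instead of 31.9 and 83.1, and the ratio over all blood EC-like cells was 2.44 and 3.68.

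The other ligands with at least 100 UMIs stayed within 2-fold. In blood EC-like cells the ratio was 0.696 (0.524 to 0.919) for *Vegfa*, 0.718 (0.556 to 0.925) for *Vegfb*, and 1.15 (1.04 to 1.27) for *Vegfc*. By class the *Vegfa* ratio was 0.335 (0.176 to 0.605) in capillary and 0.9 (0.608 to 1.33) in arterial EC-like cells. It was 0.543 (0.176 to 1.43) in venous and 0.816 (0.328 to 1.94) in other blood EC-like cells. All but the arterial value rested on fewer than 100 UMIs and were not counted. In LEC-like cells the ratio was 0.859 (0.744 to 0.991) for *Vegfa*, 0.928 (0.83 to 1.04) for *Vegfb*, and 1.17 (0.98 to 1.39) for *Pgf*. Within the LEC-like classes the *Vegfa* ratio was 0.712 (0.54 to 0.93) in the 645 and 302 undivided, 0.601 (0.37 to 0.95) in the 401 and 248 capillary, and 0.877 (0.726 to 1.06) in the 253 and 197 valve LEC-like cells. *Vegfd* had 49 and 12 UMIs in LEC-like cells, a ratio of 0.44 (0.213 to 0.84), and was not counted because it had fewer than 100 UMIs. In the same LEC-like cells the VEGFR3 coreceptor *Nrp2* had a ratio of 0.608 (0.579 to 0.638) and *Flt4* a ratio of 1 (0.971 to 1.04). *Angpt2*, which encodes Ang2, had a ratio of 6.09 (5.82 to 6.37).

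**Figure D2:**
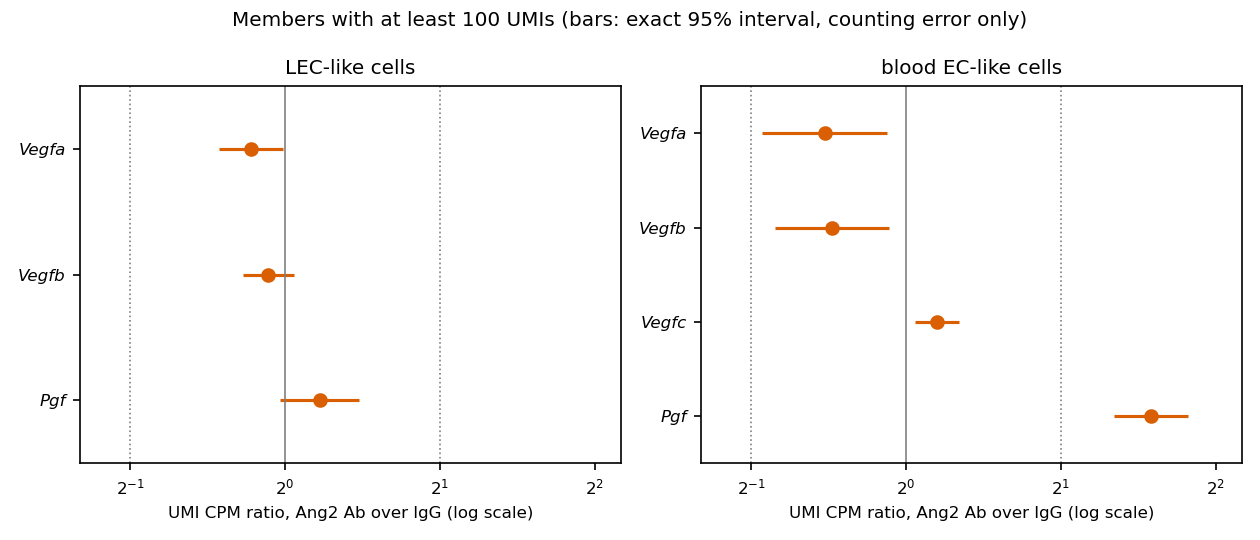
Ratio of UMI CPM in the Ang2 Ab over the IgG library (x axis, log scale) for the genes with at least 100 UMIs in LEC-like (left) and blood EC-like cells (right), with exact 95% intervals of the counts. Dotted lines mark 2-fold either way; only *Pgf* in blood EC-like cells (2.99) lies beyond them.

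The plates gave levels of the 7 genes in LECs per length of transcript. Per kilobase of exon, *Vegfb* had a median of 16.5 CPM per kb over the 8 plates and *Pgf* 16.2 CPM per kb. *Vegfd* (0.668), *Vegfa* (0.592), and *Vegfc* (0.251) were far lower, and *Adamts3* (0.054) and *Ccbe1* (0.0338 CPM per kb) were lowest. The place of *Vegfa* differed from the droplet data. There LEC-like cells held 35.9 and 30.8 UMI CPM of *Vegfa* beside 57.1 and 53 UMI CPM of *Vegfb*. The cause of this difference was not tested. The ranges over plates of *Vegfb* (8.7 to 21.5) and *Pgf* (7.1 to 32.2) overlapped, as did those of *Vegfd* (0 to 1.63) and *Vegfa* (0.209 to 1.01). The counts rested on few cells, for the higher genes too. The 10 leading wells of a plate held 50.1% to 67.4% of the *Vegfb* and 56.4% to 90.9% of the *Pgf* counts. For *Vegfa*, with a count in 4 to 43 wells per plate, they held 88.1% to 100%. *Vegfc* had 3 to 308 counts per plate from 3 to 12 wells, and *Adamts3* 0 to 238 counts from 0 to 8 wells. *Ccbe1* had 17 to 205 counts over 16 to 39 wells. In 7 plates its 10 leading wells held 42% to 68.4% of the counts, while in the plate with 205 counts 1 well held 79.5%.

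The deletions were compared to learn whether loss of the Tie receptors alters the supply of VEGF ligands by LECs. None of the 7 genes passed edgeR's quasi-likelihood test at an adjusted p of 0.05 after deletion of *Tie1* or of *Tie1* and *Tie2*. None had an unadjusted p under 0.05, and DESeq2 and limma called none either. The background was 0% of 19908 genes called for the *Tie1* deletion and 1.14% for the *Tie1/2* deletion, and 4.32% and 10.6% had an unadjusted p under 0.05.

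*Pgf* showed the change with the lowest p. Its level was 57.7 and 20.6 CPM in *Tie1* *Tie2* fl/fl, against 93.6 and 56.9 CPM in *Tie1* *Tie2* iDLEC. The deleted plate was the higher one in both table formats, but the lower deleted plate lay just under the higher control. The means were 39.2 ± 26.2 and 75.2 ± 26 CPM (SD, n = 2), a log2 fold change of 0.94 ± 0.49 (SE) with an adjusted p of 0.573 (edgeR). The estimate was 1.87 when the first control plate of this strain was left out, 0.38 when the other control was, and 0.50 and 1.26 when the first and the second deleted plate were. These control plates held 75 and 74 collector LEC-like wells, against 15 and 19 in the deleted plates, and within capillary LEC-like wells alone the estimate was -0.12 ± 0.78. In valve LEC-like wells *Pgf* was at 114 and 41.3 CPM in control and 183 and 95.8 CPM in deleted plates. It was at 57.1 and 8.14 against 96.6 and 57.4 CPM in unnamed and at 1.86 and 9.81 against 80.1 and 64.7 CPM in proliferating wells. The proliferating wells numbered only 8 and 7 in control plates, with 3 and 21 *Pgf* counts, and 18 and 20 in deleted plates. Collector LEC-like wells (2.84 and 9.06 against 0.643 and 0.95 CPM) and wells raised in interferon genes (68.8 and 112 against 0 and 46.1 CPM) went the other way. The latter numbered only 10 and 8 against 9 and 13. The part of class make-up was not tested. Wells with at least 10 *Pgf* counts made up 4.73% and 5% of the control and 11.5% and 9.55% of the deleted LECs. In the *Tie1* strain *Pgf* was at 32.9 and 47.9 CPM in fl/fl and 46.3 and 44.4 CPM in iDLEC, with wells of at least 10 counts at 5.57% and 4.87% against 7.1% and 5.46%. The 8 mural markers summed to 65.9 and 26.2 CPM in *Tie1* *Tie2* fl/fl and to 170.2 and 148 CPM in *Tie1* *Tie2* iDLEC, where *Cspg4* was at 0 in 1 plate. In the droplet data *Pgf* UMIs were found in mural-like cells, which held endothelial genes too. In the *Tie1* strain they summed to 19 and 9.21 CPM in fl/fl, with *Rgs5* at 0 in the second plate, and to 51.5 and 53.1 CPM in iDLEC, beside mean *Pgf* levels of 40.4 and 45.4 CPM. One of these markers, *Kcnj8*, was also a leading gene of the capillary LEC-like wells. Their part in the *Pgf* values was not tested.

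*Vegfa* was at 4.22 and 1.91 CPM in *Tie1* *Tie2* fl/fl and 0.894 and 2.36 CPM in *Tie1* *Tie2* iDLEC, values that overlapped (log2 fold change -0.91 ± 0.84). Leaving out 1 plate gave -1.77 (without the second deleted plate) to -0.25 (without the first control plate). In the *Tie1* strain it was at 3.52 and 1.66 CPM in the controls and 4.34 and 2.71 CPM in the deleted plates (0.44 ± 0.84). *Vegfb* varied least. It was at 34.4 and 32.6 CPM in *Tie1* fl/fl and 27.9 and 27.6 CPM in *Tie1* iDLEC (-0.27 ± 0.38). In the other strain it was at 18.3 and 25.5 CPM before and 14 and 25.3 CPM after deletion (-0.16 ± 0.38).

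*Vegfc* was at 0.806 and 2.62 CPM in *Tie1* *Tie2* fl/fl and at 0.047 and 2.83 CPM in *Tie1* *Tie2* iDLEC. It was at 0.0425 and 0.949 CPM in *Tie1* fl/fl and 0.425 and 0.117 CPM in *Tie1* iDLEC. Plates of 1 group thus differed from each other more than the groups did, and the log2 fold changes were -0.25 ± 1.79 for the *Tie1/2* and -0.86 ± 1.82 for the *Tie1* deletion. *Vegfd* was at 3.83 and 3.91 CPM in *Tie1* *Tie2* fl/fl and at 0 and 1.68 CPM in *Tie1* *Tie2* iDLEC (-2.19 ± 1.70, adjusted p = 0.755 with edgeR). Without the second deleted plate, which leaves the plate at 0, the adjusted p was 0.0851 (edgeR) and the fitted fold change is no bound, and without the first deleted plate the estimate was -1.24. It was at 3.91 and 1.54 CPM in *Tie1* fl/fl and 0.723 and 1.52 CPM in *Tie1* iDLEC (-1.28 ± 1.66). The 6 fibroblast markers, all of them detected in every plate, summed to 325 and 74.6 CPM in *Tie1* *Tie2* fl/fl, 123 and 182 CPM in *Tie1* *Tie2* iDLEC, 75.3 and 82.7 CPM in *Tie1* fl/fl, and 73.8 and 146 CPM in *Tie1* iDLEC. The 6 keratinocyte markers summed to 44.7 and 62.7 CPM in *Tie1* *Tie2* fl/fl against 17.1 and 15.1 CPM after deletion, and to 63.1 and 14 against 32.5 and 12.1 CPM in the *Tie1* strain, with *Krt1* at 0 in the first *Tie1* *Tie2* iDLEC and the second *Tie1* iDLEC plate. The part of both lists in the *Vegfc*, *Vegfd*, and *Ccbe1* values was not tested.

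*Ccbe1* was at 0.372 and 0.516 CPM in *Tie1* *Tie2* fl/fl and 0.267 and 1.89 CPM in *Tie1* *Tie2* iDLEC (1.28 ± 1.16). The plate with 1.89 CPM is the one in which 1 well gave most counts, and the estimate was -0.73 without it. In the *Tie1* strain *Ccbe1* was at 0.298 and 0.361 CPM in the controls and 0.505 and 0.247 CPM in the deleted plates (0.19 ± 1.15). *Adamts3* was at 2.95 and 0.186 CPM in *Tie1* *Tie2* fl/fl and 0 and 0.598 CPM in *Tie1* *Tie2* iDLEC (-2.37 ± 2.46). The plate with 2.95 CPM owed 80.3% of its counts to 1 well, and without it the estimate was 0.66. In *Tie1* fl/fl *Adamts3* was at 0.085 and 0.401 CPM and in *Tie1* iDLEC at 0 and 0.755 CPM (0.64 ± 2.37). The 6 cartilage markers, of the cell type with the most *Adamts3* in the droplet data, summed to 409 and 466 CPM in *Tie1* *Tie2* fl/fl and to 5.88 and 10.8 CPM in *Tie1* *Tie2* iDLEC. *Acan* was at 0 in both of these control plates, and *Matn1* in the first. *Col2a1*, *Acan*, *Cnmd*, and *Matn1* were at 0 in the first of the deleted plates, and *Matn1* in the second. In the *Tie1* strain the cartilage markers summed to 279 and 559 CPM in fl/fl and 279.5 and 331 CPM in iDLEC. *Col2a1* and *Matn1* were at 0 in the plate with 559 CPM and *Matn1* in the plate with 279.5 CPM. *Col2a1*, *Acan*, and *Matn1* were at 0 in the plate with 331 CPM. In such plates the sum came from the other genes of the list and does not by itself show cartilage cells. The part of these markers in the *Adamts3* values was not tested.

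**Figure D3:**
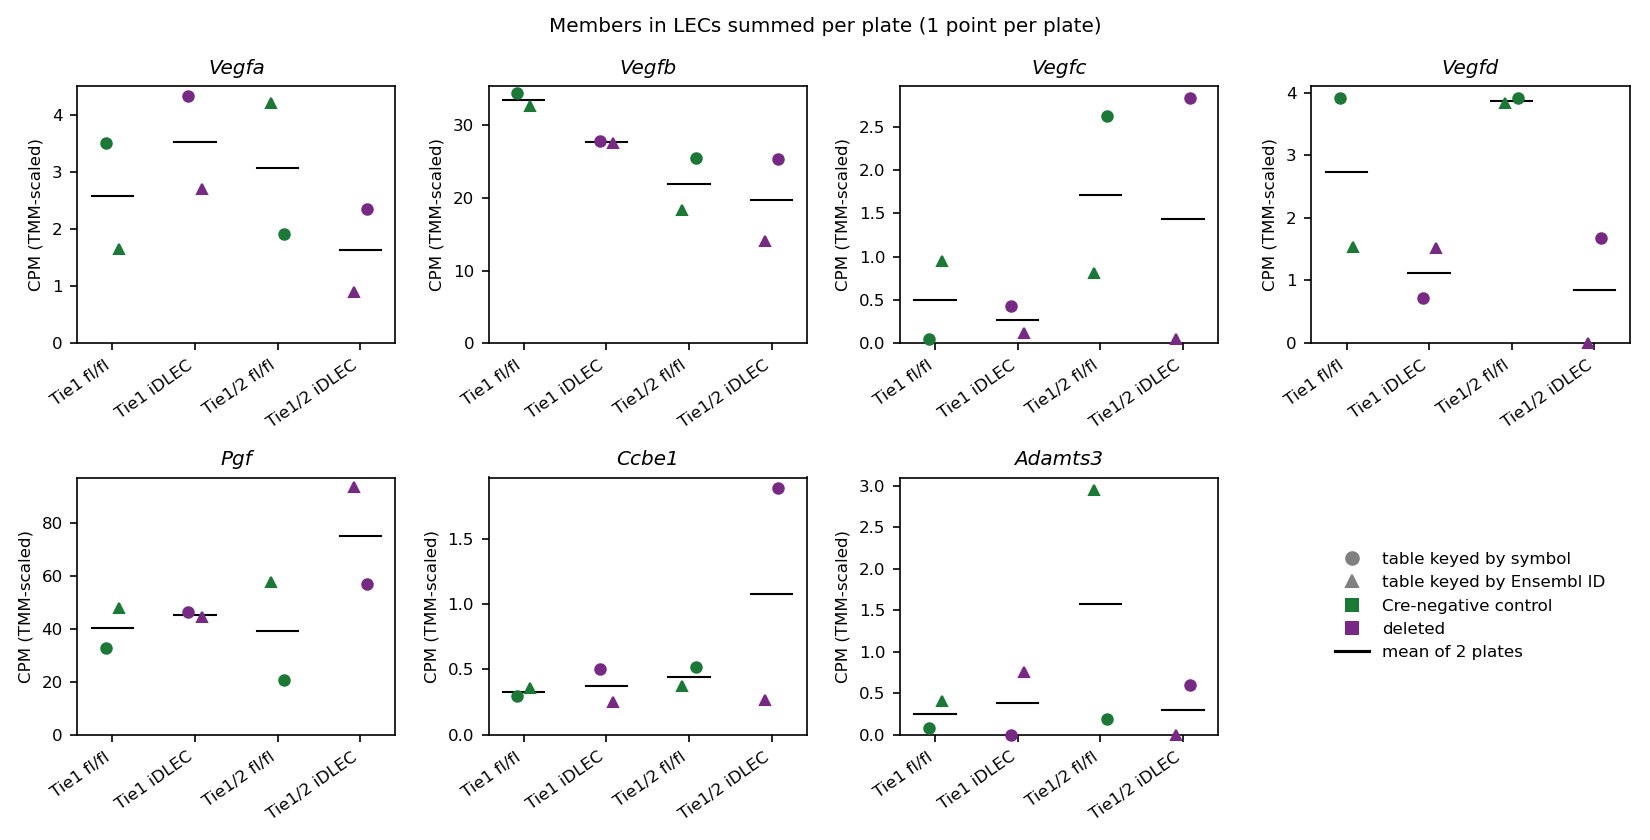
CPM with TMM scaling (y axis, linear, a separate scale for each gene) in LECs of each plate (points, 1 per plate) by genotype (x axis), with the mean of 2 plates as a line. The points of control and deleted plates overlap for most genes. They do not for *Vegfb* in the *Tie1* strain and *Vegfd* in both strains. The nearest *Vegfd* points of the *Tie1* strain are 1.54 and 1.52 CPM. With 2 plates per group such gaps are not evidence of a change, and their share over all genes was not counted.

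**Figure D4:**
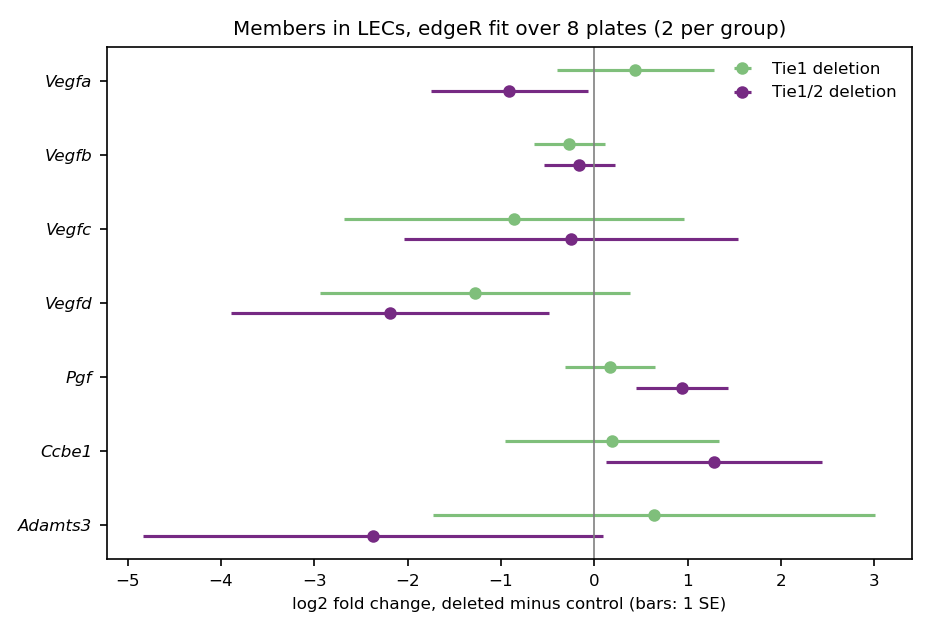
Log2 fold change of each gene, deleted minus control, with 1 SE on either side, for the *Tie1* and the *Tie1/2* deletion in the edgeR fit over 8 plates. *Pgf* after *Tie1/2* deletion (0.94 ± 0.49) has the lowest p, 0.088, and none passed the adjusted threshold.

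The difference between the deletions and their average were also tested, the latter over 4 deleted and 4 control plates. No member passed either, with a smallest adjusted p (edgeR) of 0.948 for the difference and 0.722, for *Pgf*, for the average, and none had an unadjusted p under 0.05. Over all genes 0.131% were called for the difference and 0.944% for the average, and 7.34% and 9.86% had an unadjusted p under 0.05. Within capillary LEC-like wells, 0.342% of 15201 genes were called for the *Tie1/2* deletion and none of the 6 tested members. *Vegfc* had 0 and 0 counts in these wells of the *Tie1* *Tie2* fl/fl plates and 3 and 42 counts in the deleted plates (adjusted p = 0.644, edgeR). The same wells had 0 and 70 *Vegfc* counts in *Tie1* fl/fl, so that a plate of another control group was above both deleted plates. *Pgf* in the capillary LEC-like wells was at 83.3 and 38.7 CPM in *Tie1* *Tie2* fl/fl and 54.8 and 57.3 CPM in *Tie1* *Tie2* iDLEC, and its estimate there was between -0.57 and 0.56 when 1 plate was left out.

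The genes were also compared between kinds of LECs. Each plate gave its own capillary, collector, and valve LEC-like sum, and the within-plate differences were tested by a two-sided exact permutation test, in which 8 plates allow a smallest p of 0.00781. The 7 genes had been left out of the clustering. *Pgf* was lower in collector than in capillary LEC-like wells in 8 of 8 plates, with a lowest, median, and highest level of 0.558, 4.09, and 20.6 CPM in collector and 12.4, 70.6, and 111 CPM in capillary LEC-like wells. The mean difference was -3.74 ± 1.14 (SD) in log2(CPM + 1), exact p = 0.00781, in a comparison where 10.4% of all genes had an exact p under 0.05. With finer clusters (Leiden resolution 2.0) the difference was -1.93, exact p = 0.117. Over all plates 31% of capillary and 28% of collector LEC-like wells had a *Pgf* count, and 9.26% and 1.53% had at least 10. The droplet data had no collector class. There *Pgf* was lower in capillary LEC-like cells (12.4 and 14.5 UMI CPM) than in undivided LEC-like cells (22 and 31.4). *Pgf* in valve LEC-like wells was at 0.943, 75.7, and 183 CPM and above the collector value in 7 of 8 plates (3.52 ± 3.19, exact p = 0.0312, beside 11.8% of all genes). Valve and capillary LEC-like wells did not differ beyond their spread in *Pgf* (-0.22 ± 2.47, exact p = 0.898).

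*Vegfa* followed the droplet data in being highest in valve LEC-like wells. It was at 0.0623, 0.333, and 3.31 CPM (lowest, median, and highest plate) in capillary and at 0.21, 6.72, and 16.2 CPM in valve LEC-like wells. The valve value was above the capillary value in 7 of 8 plates (2.11 ± 1.73, exact p = 0.0156), where 14.9% of all genes had a p under 0.05. Against collector LEC-like wells *Vegfa* was higher in 6 of 8 plates (1.46 ± 1.75, exact p = 0.0547). *Vegfb* had medians of 20.8, 26.2, and 41.8 CPM in capillary, collector, and valve LEC-like wells, with exact p-values of 0.141 to 0.922. *Vegfc*, *Vegfd*, *Ccbe1*, and *Adamts3* had a median under 1 CPM in each class and exact p-values of 0.219 or more. After adjustment over all 21 comparisons of genes and classes none was under 0.05, the lowest being 0.164. *Tie1* *Tie2* iDLEC plates gave only 15 and 19 collector LEC-like wells, against 45 to 75 in the other plates.

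**Figure D5:**
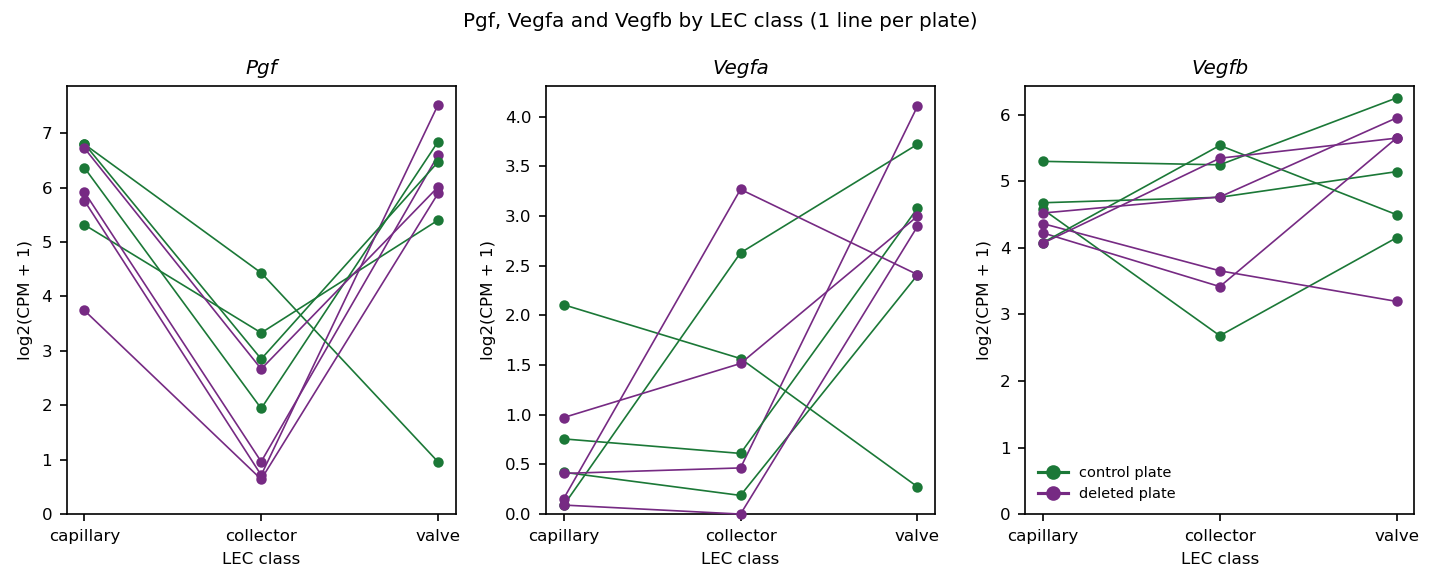
Levels of *Pgf*, *Vegfa*, and *Vegfb* in log2(CPM + 1) (y axis) in capillary, collector, and valve LEC-like wells (x axis), each line joining the values of 1 plate, colored by control or deleted genotype. *Pgf* drops at the collector class in all 8 plates and *Vegfa* is higher in the valve than in the capillary class in 7 of 8.

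The genes around the ligands were counted in 5 lists, none of which had a call with edgeR after *Tie1* deletion. The lists were chosen with earlier results of these data known, so that their counts and medians are descriptions only. Over all 19908 genes tested, 59 rose and 167 fell with edgeR after *Tie1/2* deletion. After *Tie1/2* deletion, 1 of 5 VEGF receptors and coreceptors fell, *Nrp2*, from 427 and 428 CPM to 141 and 141 CPM (-1.60 ± 0.27, adjusted p = 0.032, edgeR). The call was lost when any 1 of these 4 plates was left out (adjusted p of 0.111 to 0.187), although the fold change remained between -1.63 and -1.60. *Kdr* was at 886 and 719 CPM against 436 and 379.6 CPM (-0.98, adjusted p = 0.0612, edgeR), with an adjusted p of 0.00175 in DESeq2 and, in edgeR, of 0.0113 with no filter on low counts and 0.0337 with table format as a term. *Flt1* was at 1.26 and 4.41 against 0 and 12.5 CPM. Of 9 further genes in a VEGF-C processing and binding list, 8 could be tested and none passed with edgeR. The list also holds *Svep1*, for which cleavage or binding of VEGF-C is not claimed. The proprotein convertase gene *Pcsk5* was at 7.47 and 6.54 against 0.58 and 0.276 CPM (-4.03 ± 0.78, adjusted p = 0.0601, edgeR), the integrin gene *Itga9* at 263 and 229 against 131 and 112 CPM, and *Svep1* at 2.08 and 0.361 against 0.0784 and 0.12 CPM. DESeq2 called *Pcsk5* (adjusted p = 4.99e-08) and *Itga9* (0.0101), as did edgeR with no filter on low counts (0.00516 and 0.0226).

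None of the 4 PDGF ligands, relatives of the VEGF ligands that act on mural cells and fibroblasts, passed with edgeR. *Pdgfb* was at 55.8 and 53.3 against 174 and 145 CPM (1.55 ± 0.29, adjusted p = 0.0509, edgeR), *Pdgfa* at 72.5 and 109 against 25.9 and 28.2 CPM, and *Pdgfd* at 7.33 and 3.37 against 36.3 and 53.7 CPM. DESeq2 called these 3 (adjusted p of 3.09e-05, 7.72e-05, and 7.62e-05), as did edgeR with no filter on low counts (0.000425, 8.68e-05, and 1.46e-05), and edgeR with table format as a term called *Pdgfa* (0.0337). Of 8 VEGF-responsive endothelial genes 2 rose, beside 59 of all 19908 genes tested. The 2 were *Angpt2* (269.9 and 516 to 3233 and 2639 CPM, 2.90 ± 0.31, adjusted p = 0.00476, edgeR) and the tip cell gene *Esm1* (0.0248 and 0.382 to 90.2 and 53.7 CPM, 8.43 ± 1.18, adjusted p = 0.0147, edgeR). Whether either rise reflects a response to VEGF was not tested. *Esm1* had an adjusted p of 0.0651 without the first deleted plate. *Apln*, which encodes the tip cell peptide apelin, was at 0.0248 and 0.0826 against 10.9 and 18.1 CPM (adjusted p = 0.279 with edgeR, 2.19e-08 with edgeR and no filter, 0.0425 with DESeq2). Of 10 hypoxia-responsive genes none passed with edgeR; *Adm* was at 193 and 158 against 248 and 332 CPM, *Ldha* at 343 and 336 against 501 and 511 CPM, and *Pdk1* at 3.72 and 5.2 against 1.11 and 0.653 CPM. The median log2 fold changes of the lists after *Tie1/2* deletion were -0.54 for receptors, -1.49 for the VEGF-C processing and binding list, and -0.10 for PDGF ligands. They were 3.79 for VEGF-responsive genes and -0.18 for hypoxia-responsive genes, beside -0.25 for the 7 members and 0.00 for all genes tested. The VEGF-responsive median did not reflect a rise of all 8 genes. *Egr3* (6.37) and *Cxcr4* (4.68) were at 0.251 CPM or less in these 4 plates. *Dll4* (0.20), *Rcan1* (-0.28), and *Nr4a1* (0.19) had small estimates.

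The genes whose droplet levels ran most alike to each ligand over 12 cell types in 2 libraries (24 points, which share libraries and depth) were *Ace* and *Plscr1* (both r = 0.90) and *Ly6a* (0.87) for *Vegfc*, and *Cdc42ep5* and *Smo* (both 0.84) and *Arap1* (0.80) for *Vegfa*. For *Vegfb* they were *Igf2bp3* (0.92), *Ralgps2* (0.91), and *Stt3b* (0.90), for *Pgf* *Yaf2* (0.86), *Ywhaq* (0.84), and *Tax1bp3* (0.81), and for *Vegfd* *Plagl1* (0.75), *Ncoa1* (0.74), and *Vcan* (0.72). *Ccbe1* and *Adamts3* had too few UMIs for this comparison.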

How the data were processed

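The values deposited by the authors were read counts per gene for each Smart-seq well and UMI counts per gene for each droplet cell, neither of them normalized. Per the labels, TopHat2 2.1.1, SAMtools 0.1.18, featureCounts, and Cell Ranger were used with GRCm38 (mm10). The tests applied by the study to these data were not given in the sources used here.

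Plate tables were keyed by symbol or by Ensembl ID and matched on 42525 genes, which covered 95.53% to 96.76% of all counts in a plate. Spike-in transcripts (at most 0.155%) were excluded. A minimum of 1000 detected genes was set for wells, and a minimum of 500 genes with a maximum of 10% mitochondrial UMIs for droplet cells. Clusters were made with scanpy 1.11.5 (2000 variable genes, 30 principal components, 15 neighbors, Leiden resolution 1.0), leaving out 19 genes, the members among them. A cluster took the name of the list with the highest share of markers raised at least 1.5-fold, with at least 3 raised, a rule set on the data. Doublets were not removed from the values reported, and removal of the 5% of droplet cells with the highest Scrublet scores was an alternative. LEC counts were summed per plate and fitted over all 8 plates with edgeR 4.0.16 in R 4.3.3 (TMM scaling, filterByExpr, quasi-likelihood F test), with Benjamini-Hochberg adjustment over 19908 genes. DESeq2 1.42.0, limma 3.58.1, other filters, another scaling, other clusterings, and the omission of each plate were alternatives. LEC classes were compared by exact permutation over plates with a pseudocount of 1 CPM. Droplet values are sums per cell type with exact 95% intervals, a count of 0 having a limit of 3 UMIs, and cell types with under 20 cells in a library were left out. The tests were checked on simulated data. The members and lists were chosen with earlier results of these data known. All 7 members are named, and from each list at most 3 genes, those with the smallest adjusted p. The other genes of the VEGF-responsive list are named only beside its median. Promoters are from RefSeq GRCm38.p6.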

Additional observations from a re-analysis of the deposited data

How the results depend on the processing

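No member was called in any of the 4 plate comparisons, or among capillary LEC-like wells, under any alternative run, and *Pgf* was the only member beyond 2-fold in blood EC-like cells throughout. The number of members with 1 leading cell type in both libraries was 5 to 7. The sign of members that passed no test depended on the setting. Using only LEC wells without a count of *Col1a1*, *Dcn*, or *Pdgfra* (3 to 332 wells per plate), the log2 fold change after *Tie1* deletion was -2.40 for *Vegfa*, 0.65 for *Vegfb*, and 3.38 for *Vegfd*, and after *Tie1/2* deletion 7.0 for *Vegfa*, 0.81 for *Vegfb*, 0.11 for *Vegfd*, -0.02 for *Pgf*, -1.01 for *Flt1*, and 0.16 for *Itga9*. With limma on mean CPM per well, it was 0.20 for *Vegfc*, -0.09 for *Pgf*, -0.09 for *Ccbe1*, and -0.27 for *Adamts3* after *Tie1* deletion and -0.09 for *Flt1* after *Tie1/2* deletion. With table format as a term, *Ccbe1* was at -0.01 and *Adamts3* at -0.28 after *Tie1* deletion, and with no cluster removed *Vegfc* was at 0.37 after *Tie1/2* deletion. The cause of these shifts was not tested.

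Plates with the same number deviated together with r = 0.11 in the *Tie1* and 0.09 in the *Tie1* *Tie2* strain, over 2 pairs each. Same-numbered plates of a strain also share the table format, and in the *Tie1* strain the sex, while no shared litter, batch, or day is named. With a replicate block, *Vegfc* was at 0.05 and *Adamts3* at -1.11 after *Tie1* deletion, *Vegfd* at -4.35 and *Flt1* at -2.0 after *Tie1/2* deletion, *Esm1* had an adjusted p of 0.0745 and *Pdgfb* one of 0.0444 (edgeR), and no member was called.

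Leaving out 1 plate at a time gave, after *Tie1* deletion, -0.0021 to 1.09 for *Vegfa*, -2.06 to 2.63 for *Vegfc*, -0.07 to 0.46 for *Pgf*, -0.40 to 0.61 for *Ccbe1*, and -7.40 to 2.13 for *Adamts3*. After *Tie1/2* deletion it gave -0.65 to 0.17 for *Vegfb*, -5.14 to 0.83 for *Vegfc*, -0.73 to 2.05 for *Ccbe1*, -10 to 0.66 for *Adamts3*, and -10.86 to 2.30 for *Flt1*. Among capillary LEC-like wells it gave -1.43 to 1.5 for *Vegfa*, -0.57 to 0.56 for *Pgf*, and -1.57 to 0.54 for *Ccbe1*. A group left with 1 plate was assumed to vary like the others.

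Over all genes, calls for the *Tie1* deletion went from 0 to 172 with DESeq2 and to 268 with no filter on low counts, and for the *Tie1/2* deletion from 226 to 1006 and 1172, to 14 in wells without fibroblast counts, and to 80 to 216 without 1 plate. For the difference, 26 became 434 with DESeq2, 622 with no filter, 11 with table format as a term, 10 with the replicate block, 17 with no cluster removed, 13 with limma, 0 in wells without fibroblast counts, and 2 to 17 without 1 plate. For the average, 188 became 893, 1089, 119 with the block, 2 in wells without fibroblast counts, and 57 to 147 without 1 plate. Among capillary LEC-like wells 52 became 288 with no filter, 21 with the block, and 7 to 46 without 1 plate.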

Other observations

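The wells removed from the LEC sums held VEGF ligands of their own. The 248 fibroblast-like wells had 9.13 CPM of *Vegfc*, against 1.1 CPM in all LEC wells, and 7.4 CPM of *Vegfd*, against 2.26 CPM. Their *Ccbe1* level was 1.22 CPM, from 17 counts, against 0.618 CPM in LEC wells. These wells were shallow, with a median of 17676 counts, and were pooled over plates, so that the values have no replicate error. The 26 keratinocyte-like wells had 30.9 CPM of *Vegfd* and 63 CPM of *Pgf*, with a *Vegfd* count in 15.4% of the wells.

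A cluster of 201 LEC wells led by the immediate early genes *Fosb*, *Atf3*, and *Fos* had *Pgf* as its next leading gene. It held 3.61% to 9.74% of the LEC wells of a plate and 0.551% to 38.3% of the *Pgf* counts. Outside it, *Pgf* was at 39.5 and 22.7 CPM in *Tie1* *Tie2* fl/fl and 83.2 and 48.9 CPM in *Tie1* *Tie2* iDLEC, values that were not tested.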
